A study of Homo sapiens with 36 samples.

Results

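Cancer-testis antigens are proteins whose genes are read in the male germ line, are silent in most adult tissues and are read again in many tumours. The set described here is 9 such genes of the 58735 in the count table: MAGEA1, MAGEA3, MAGEA4, MAGEA6, MAGEA10, MAGEA12, CTAG2, GTSF1 and PRAME. They were taken by gene symbol and chosen by their measured levels, because several of them are silent in some of the 3 cell lines of the study and high in another. The levels of the lines are therefore given below as a description, without a test. Changes with a treatment within a line, and how far those changes differed between lines, were tested for members with more than 3 reads in the control group. Where the control group was silent, a value that the choice used, the change is given as a description.

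The 36 libraries are poly(A) RNA sequencing of HN4, HN6 and Cal27, established lines grown from human head and neck squamous cell carcinoma. Each line has 12 libraries in 4 groups of 3. The untreated and IL-8 groups form one experiment, in which IL-8, a chemokine that attracts neutrophils, was given at 100 ng/ml for 24 h. The vector and ACLY groups form the other, in which cells received an empty plasmid or a plasmid carrying ACLY, the enzyme that makes cytosolic acetyl-CoA from citrate. All lines share the same medium with exosome-depleted serum. The labels name no promoter for the plasmid and do not say whether replicates were separate cultures. The p-values below therefore set differences between groups only against the scatter of libraries within groups, estimated over an experiment. That scatter may be technical.

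The MAGEA genes are a cluster of near-copies at the end of the long arm of the X chromosome. Their proteins bind RING-type ubiquitin ligases and direct them to new targets: MAGEA3 and MAGEA6 with TRIM28, MAGEA4 with RAD18. In most normal cells their promoters are methylated at CpG sites, and loss of that methylation in tumours is the best known route to their expression. CTAG2 is an X-linked relative of NY-ESO-1 and, like the MAGEA proteins, is a target of T cells. PRAME and GTSF1 are autosomal. PRAME is a leucine-rich repeat protein that serves as the substrate receptor of a cullin ligase and restrains retinoic acid signalling. GTSF1 is a zinc-finger cofactor of PIWI proteins in the piRNA pathway, which silences transposons in germ cells.

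In the coordinates of the count table, which the submitters' processing notes give as hg38, the 7 X-linked genes lie within X:151912509-154653579. MAGEA4 is at X:151912509-151925170 on the plus strand and MAGEA10 at X:152133310-152138578 on the minus strand. MAGEA3 is at X:152698752-152702347 (plus), MAGEA12 at X:152733779-152737669 (plus) and MAGEA6 at X:152766136-152769747 (minus), so these 3 are neighbours. MAGEA1 is at X:153179285-153183880 (plus) and CTAG2 at X:154651972-154653579 (minus). GTSF1 is at 12:54455950-54473602 (minus) and PRAME at 22:22547701-22559361 (minus). All 9 are annotated as protein-coding.

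The stretches before the start sites are shown for 4 genes that behave differently across the lines: MAGEA3, high in every line, MAGEA12, silent in Cal27 controls, MAGEA4, low in HN6, and GTSF1, which is not in the family but has the pattern of MAGEA1. They come from the RefSeq promoter windows (GRCh38.p14, 250 bases before to 50 after the most upstream listed start), cut so as to end before the RefSeq start and before the gene's first counted base, and are written 5′ to 3′. Capitals mark, where they lie whole in the printed stretch, runs of at least 9 bases that the full windows of MAGEA3, MAGEA4, MAGEA6 and MAGEA12 all contain.
MAGEA3 (chrX:152698544-152698751, plus strand): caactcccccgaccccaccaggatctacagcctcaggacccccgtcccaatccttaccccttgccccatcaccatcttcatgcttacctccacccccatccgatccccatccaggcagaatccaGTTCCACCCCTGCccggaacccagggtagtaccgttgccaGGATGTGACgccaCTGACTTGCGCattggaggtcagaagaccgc
MAGEA12 (chrX:152733507-152733756, plus strand): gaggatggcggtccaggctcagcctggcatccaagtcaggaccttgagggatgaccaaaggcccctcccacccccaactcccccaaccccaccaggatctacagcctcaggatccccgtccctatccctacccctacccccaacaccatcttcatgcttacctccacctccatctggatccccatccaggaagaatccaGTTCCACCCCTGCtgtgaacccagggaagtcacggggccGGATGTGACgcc
MAGEA4 (chrX:151912224-151912473, plus strand): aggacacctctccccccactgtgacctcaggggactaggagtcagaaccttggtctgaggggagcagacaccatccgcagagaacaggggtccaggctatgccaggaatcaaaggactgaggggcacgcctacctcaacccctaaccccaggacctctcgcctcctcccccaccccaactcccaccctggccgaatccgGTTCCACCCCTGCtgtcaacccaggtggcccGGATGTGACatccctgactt
GTSF1 (chr12:54473603-54473852, minus strand): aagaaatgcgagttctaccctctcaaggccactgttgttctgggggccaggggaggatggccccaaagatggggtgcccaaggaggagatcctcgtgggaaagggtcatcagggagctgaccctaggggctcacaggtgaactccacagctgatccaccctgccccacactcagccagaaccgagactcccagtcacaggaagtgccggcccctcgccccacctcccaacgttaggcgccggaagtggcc
The shared runs are GTTCCACCCCTGC, CTGACTTGCGC and GGATGTGAC, searched on both strands. The first is in 7 of all 35116 promoter windows (0.0199%), which belong to 6 genes: these 4 members, CSAG1 and MPP7 on chromosome 10. CSAG1 is on the strand opposite MAGEA12 and its span ends 44 bases away, so their windows may hold the same copy of the run. The second run is in 0.0484% of windows and the last in 0.302%. In MAGEA4 and MAGEA12 the run CTGACTTGCGC lies across or just after the start and is not whole in the printed stretch. The first bases of that run end the printed stretch of MAGEA4 in small letters. The 300-base windows of MAGEA3 and MAGEA6 are identical, although the genes point in opposite directions. No capital falls in GTSF1. These windows held 19 CpG sites in MAGEA3 and MAGEA6, 13 in PRAME, 10 in MAGEA4 and GTSF1 and 9 in MAGEA12, against a median of 14 over all windows. By the way the runs were chosen, MAGEA3, MAGEA12 and MAGEA4, which differ in their pattern over lines, share all 3 of them. RefSeq windows for MAGEA1, MAGEA10 and CTAG2 were not used here.

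Near-copies limit how well reads can be given to one gene. The longest open reading frames of MAGEA3 and MAGEA6 are 98.1% identical, and those of MAGEA3 and MAGEA12 are 92.5% identical. Of all 100-base windows in the GENCODE 29 transcripts of MAGEA3, 34.9% occur exactly in MAGEA6, so the split of reads between this pair is uncertain. The shares were 24.5% for CTAG2 (with CTAG1A), 11.9% for MAGEA10 (with the MAGEA10-MAGEA5 readthrough), 3.54% for MAGEA12 (with MAGEA2) and 2.45% for MAGEA4 (with MAGEA4-AS1). They were 0 for MAGEA1, GTSF1 and PRAME. MAGEA4 also overlaps MAGEA4-AS1 on the opposite strand, which was at 9.81 CPM in untreated HN4, and the sources used here do not say that counting used the strand.

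Levels are CPM (counts scaled to a common library size), scaled with TMM factors over all 36 libraries, with the SD over 3 libraries. Library totals ran from 16570601 to 20232735 counts, and 3 counts in a library, the limit that a count of 0 allows, correspond to between 0.148 and 0.181 CPM (counting error only). Members reached a mean of 1 CPM in different numbers. HN4 had 8 of 9 in each of its groups (all but CTAG2), HN6 had 5 (MAGEA3, MAGEA4, MAGEA6, MAGEA12 and CTAG2) and the Cal27 controls had 4 (MAGEA3, MAGEA4, MAGEA6 and PRAME). The Cal27 groups given IL-8 or ACLY had 8. Markers of squamous epithelium were present in all lines (9 or 10 of 10 at 1 CPM or more), with 9 in every HN4 and HN6 group. The missing one was KRT14, with no read in untreated HN4 and 0.688 CPM in untreated HN6. None of 12 male germ cell markers reached 1 CPM in any group, and their summed level reached at most 0.745 CPM in a library, while 6 to 11 of them had no read in a group.

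**Figure D1:**
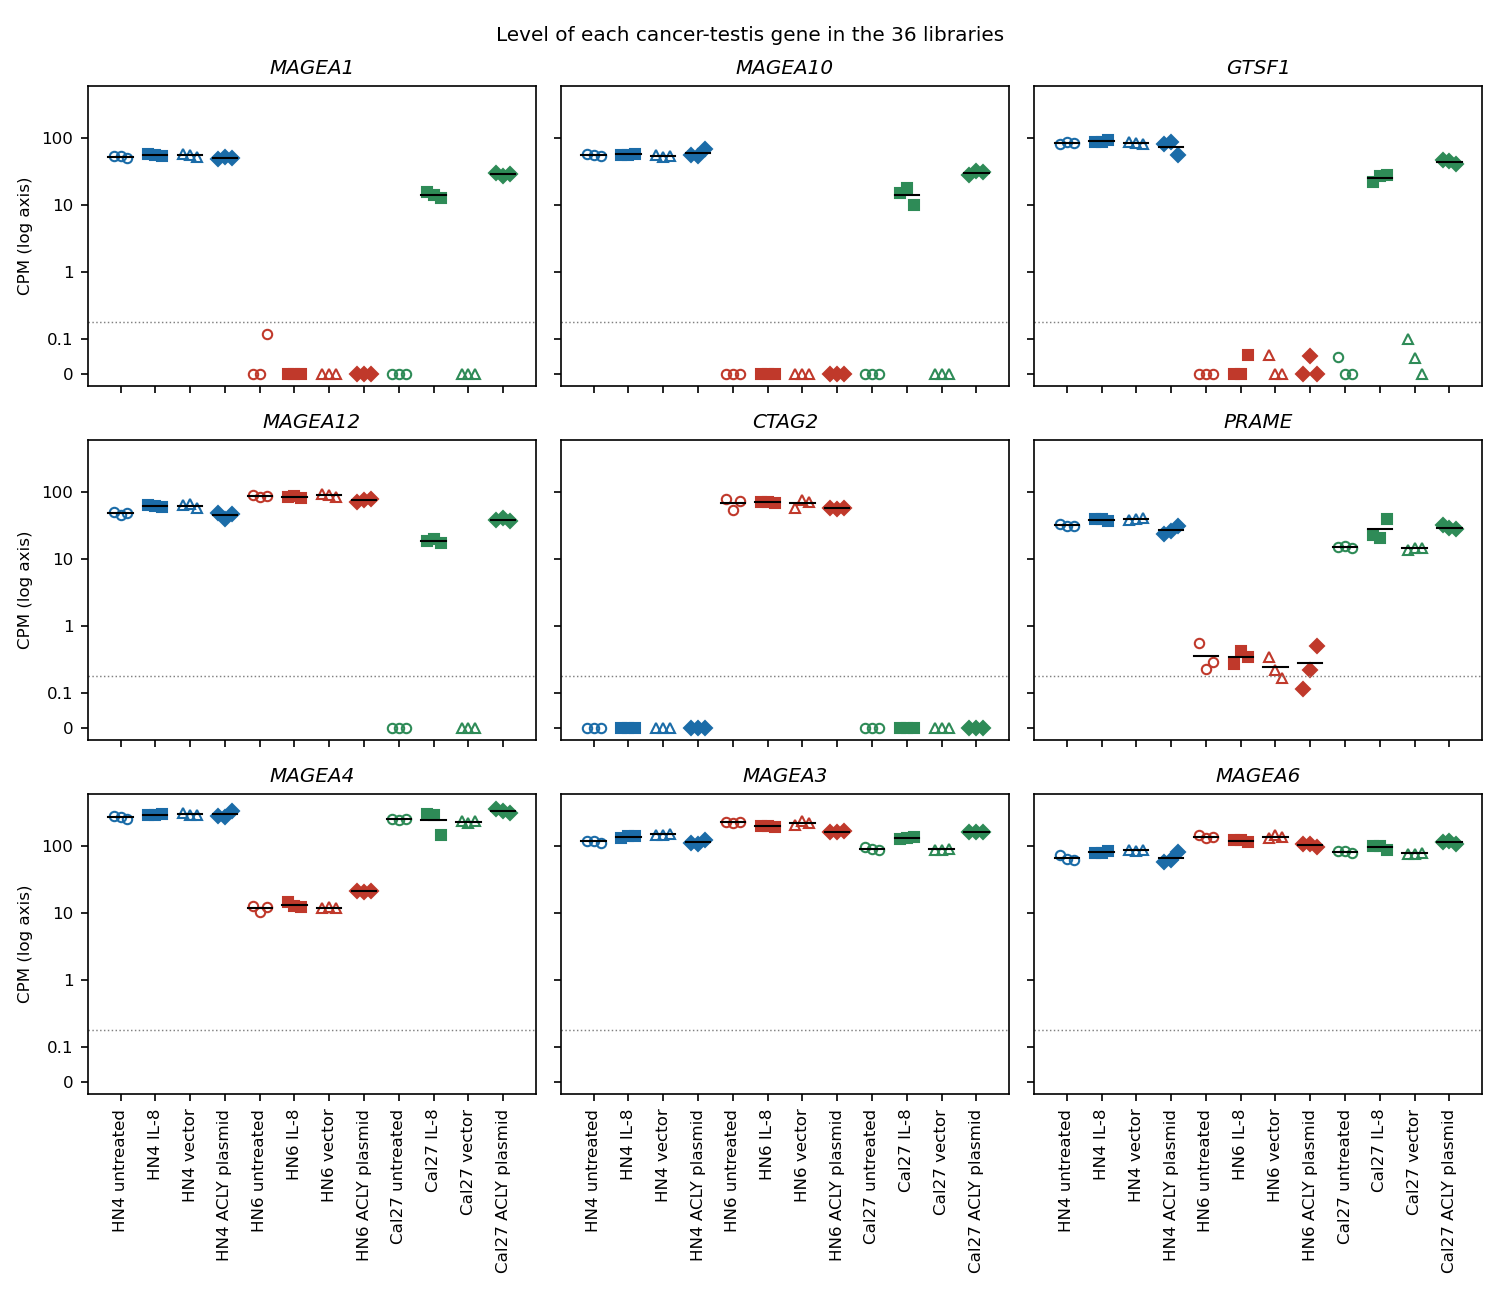
Level of each gene in each of the 36 libraries, in CPM on a log axis with 0 drawn at its foot. Blue is HN4, red HN6 and green Cal27; open circles are untreated, squares IL-8, open triangles vector and diamonds ACLY plasmid; black lines are group means above the dotted line, which is the highest level that a count of 0 allows (0.181 CPM). MAGEA1, MAGEA10 and GTSF1 sit at or above 49.5 CPM in all HN4 libraries and at or below 0.118 CPM in all HN6 and all control Cal27 libraries.

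MAGEA1, whose product was the founding antigen of the family, was the gene of HN4. Untreated HN4 libraries held 54.3, 53.4 and 51.0 CPM, and the 12 HN4 libraries ran from 49.5 to 58.7 CPM with a median of 53.8. The 12 HN6 libraries together held 2 reads, both in a single untreated library, and the 6 Cal27 control libraries held none. HN4 and the other lines' controls were thus far apart, at least 1020-fold for untreated HN4 against untreated Cal27 with a floor of 3 counts over the group.

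MAGEA10 followed the same order. Untreated HN4 held 57.3, 56.8 and 55.0 CPM, all 12 HN6 libraries held 0 reads, and so did the 6 Cal27 controls. HN4 replicate 3 labelled ACLY, at 67.9 CPM, was the highest library of all 36.

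GTSF1, though autosomal and unrelated in sequence, had this pattern as well. It was at 81.1, 87.7 and 84.8 CPM in untreated HN4. HN6 held 3 reads in 12 libraries, and the Cal27 controls held 1 read (untreated) and 3 reads (vector). Among the other piRNA pathway genes listed, PNLDC1, a nuclease that trims piRNAs, was at 27.5 CPM in untreated HN4 against 0.0377 in HN6 and 0.068 in Cal27, whereas TDRD7, TDRKH and MYBL1 were read in all lines. HENMT1, which methylates piRNA ends, ran the other way, with no read in untreated HN4, 19.6 CPM in HN6 and 23.9 in Cal27. PIWIL2, one of the PIWI proteins, was highest in untreated Cal27, at 8.4 CPM against 1.29 in HN4 and 1.85 in HN6. 10 of the 23 listed genes of that pathway had enough reads to be tested.

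MAGEA12 was read in HN4 and HN6 and not detected in Cal27 controls. Untreated HN6 held 91.4, 84.3 and 88.0 CPM and untreated HN4 held 50.6, 45.8 and 49.1, while all 6 Cal27 controls held 0 reads. The untreated lines did not overlap.

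CTAG2 was the member read only in HN6. Its 3 untreated HN6 libraries held 78.5, 53.6 and 75.1 CPM, and the 24 libraries of HN4 and Cal27 held 0 reads, the treated Cal27 libraries included. That is at least 1260-fold and 1340-fold above untreated HN4 and Cal27. How reads were split with CTAG1A is uncertain.

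PRAME was high in HN4, intermediate in Cal27 and close to the floor in HN6. It was at 33.1, 31.1 and 31.8 CPM in untreated HN4 and at 15.4, 15.9 and 14.9 in untreated Cal27. Untreated HN6 held 19 reads, at 0.57, 0.23 and 0.30 CPM. The untreated lines did not overlap, but Cal27 with IL-8 reached 40.2 CPM and Cal27 with ACLY ran from 28.1 to 31.9, inside the HN4 range of 23.8 to 41.9 over 12 libraries.

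MAGEA4 split the lines another way, with HN4 and Cal27 high and HN6 low. Untreated libraries held 281, 277 and 260 CPM in HN4, 255, 248 and 259 in Cal27, and 12.8, 10.6 and 12.6 in HN6. Its antisense transcript MAGEA4-AS1 was also low in HN6, at 0.367 CPM, against 9.81 in untreated HN4 and 12.1 in Cal27.

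MAGEA3 and MAGEA6 were high in all lines, at 59.0 CPM or more in every library. MAGEA3 was at 122, 120 and 114 CPM in untreated HN4, 230, 222 and 234 in HN6 and 97.8, 90.3 and 87.7 in Cal27. MAGEA6 was at 74.4, 65.3 and 63.2 CPM in HN4, 145, 134 and 140 in HN6 and 85.3, 84.3 and 80.5 in Cal27. In untreated cells HN6 was highest for both, but HN4 stood above Cal27 for MAGEA3 and below it for MAGEA6, with no overlap in either case. Per length, as CPM per kb of the deposited gene length, the highest member in untreated HN4 was MAGEA4 (88.4 ± 3.54, SD, n = 3) and the lowest of the 8 read was PRAME (8.48 ± 0.26). In HN6 MAGEA3 led with 128 ± 3.47 per kb, followed by MAGEA6 with 74.99 ± 3.15 and CTAG2 with 69.5 ± 13.6, the last pair overlapping within their SDs.

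The ratio of MAGEA3 to MAGEA6 reads marked the lines too. It was 1.76 ± 0.11 in untreated HN4 and 1.64 ± 0.0492 in untreated HN6, but 1.10 ± 0.0387 in untreated Cal27 and 1.14 ± 0.0186 in Cal27 with vector. In Cal27 with IL-8 it was 1.37 ± 0.139 (1.30, 1.29 and 1.53), and with ACLY 1.41 ± 0.0639 (1.42, 1.35 and 1.47). Treated Cal27 libraries therefore all lay above the 6 Cal27 controls, between them and the HN4 mean. HN4 and HN6 groups stayed between 1.58 and 1.76. These are descriptions, and the uncertain split of reads between the pair bears on all of them.

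**Figure D2:**
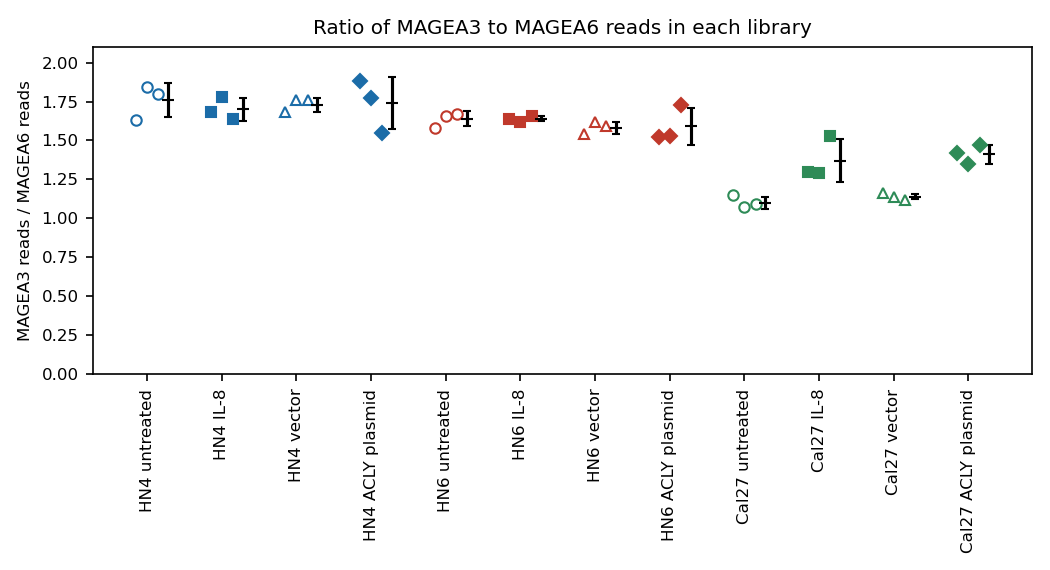
Ratio of MAGEA3 to MAGEA6 reads in each library by group, with the group mean and SD as a black bar at the right of the points; colours and symbols mark line and group (blue HN4, red HN6, green Cal27; open for untreated and vector). The 6 Cal27 controls lie between 1.07 and 1.16 and the 6 treated Cal27 libraries between 1.29 and 1.53.

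Genes with the most similar pattern were found by Pearson's r of log2(CPM + 0.5) over the 12 group means, among 14238 protein-coding genes outside the set, Y-linked genes left out; points that share a line are not independent. For MAGEA1 these were CLEC2L, GLB1L2 and CGREF1 (r = 0.9995, 0.9995 and 0.9994), and the same genes came up for MAGEA10. GLB1L2 was also nearest to GTSF1 (r = 0.9998), at 51.7 CPM in untreated HN4, 0 in untreated HN6 and Cal27, 17.4 in Cal27 with IL-8 and 28.1 with ACLY. Nearest to MAGEA12 was its neighbour CSAG1 (r = 0.994), at 37.6, 36.3 and 0.035 CPM in untreated HN4, HN6 and Cal27. CTAG2 was closest to NAA11, TWIST2 and CCDC152, PRAME to PRXL2B, HOXC10 and P2RX5, and MAGEA4 to RAB36, PRDX2 and CDKN2A. MAGEA3 and MAGEA6, the pair high in every line, had 1 gene each above an r of 0.99: RCC1 (0.9905) and IRX2 (0.9912).

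Before the treatments are compared, 4 features of the libraries need stating. In HN4 the libraries go against their plasmid labels: ACLY was at 1508 ± 10.0 CPM in those labelled vector and 348 ± 30.4 in those labelled ACLY, against a rise of 3.05 ± 0.0545 (log2, SE) in HN6 and of 3.03 ± 0.0545 in Cal27 (both from edgeR). ACLY also differed with IL-8, by 1.85 in HN4, 2.32 in Cal27 and -0.31 in HN6. Replicate 3 of Cal27 with IL-8 and replicate 3 of HN4 labelled ACLY stood apart, with mitochondrial shares of 1.06% and 2.15% of counts where the other libraries had 3.16% to 6.24%. In Cal27 that share was lower with treatment: 4.55% to 4.83% untreated against 3.37% and 3.59% in the other IL-8 libraries, and 4.53% to 5.01% with vector against 3.16% to 3.27% with ACLY. Its part in the Cal27 changes was not tested. Lastly, the treated Cal27 libraries held many genes that are read in HN4, part of them also in HN6, and that the Cal27 controls lacked. Their values are given after the Cal27 results, and whether these libraries contain RNA of HN4 was not tested.

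Changes were tested with edgeR's quasi-likelihood method, with Benjamini-Hochberg adjustment over all genes and a threshold of 0.05. Whether the libraries of compared groups overlapped is given as a description only. The share of all genes without such overlap was not counted. All 9 members passed the filter on low counts in both experiments. CTAG2 passed only through HN6, and the groups in which MAGEA1, MAGEA10, MAGEA12 and GTSF1 are silent passed through those in which they are high.

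**Figure D3:**
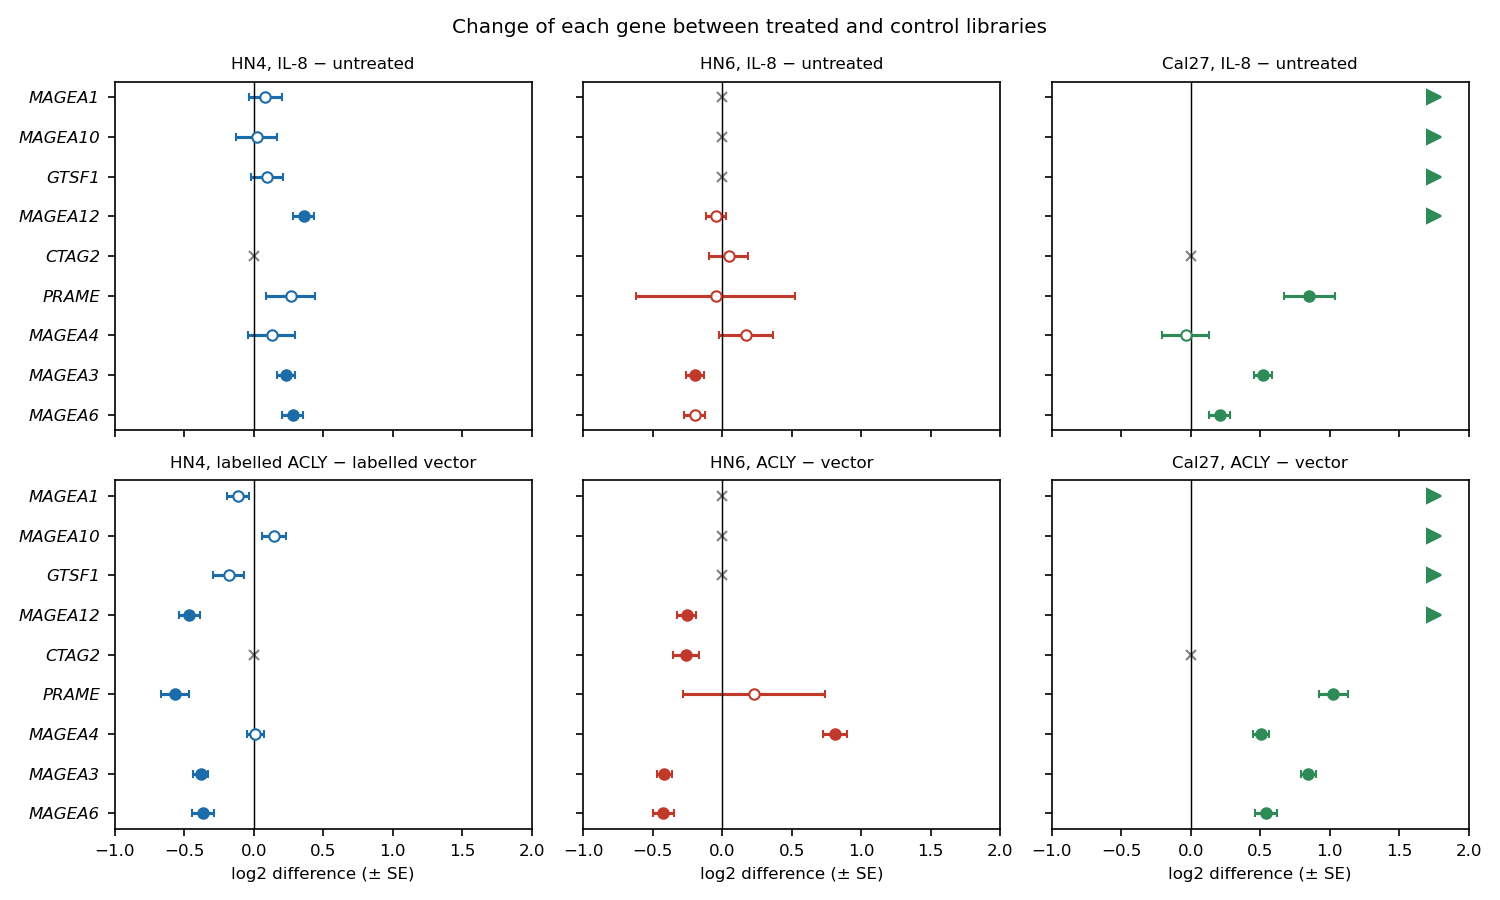
Log2 difference (treated minus control, bars ± SE, 3 libraries a group) of each gene in the 6 comparisons. Filled points passed an adjusted p of 0.05, open points did not, crosses mark genes with at most 3 reads in both groups, and triangles mark genes with at most 3 reads in the control group and 759 or more in the treated group, whose fold has no fitted value shown. Cal27 is the line in which nearly all members moved upward.

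In Cal27, IL-8 was accompanied by reads from 4 genes that the untreated cells lacked. MAGEA1 went from 0 reads in 3 libraries to 15.5, 14.2 and 12.8 CPM, MAGEA10 from 0 to 15.2, 17.9 and 9.99 CPM, and MAGEA12 from 0 to 18.8, 20.2 and 17.5 CPM. GTSF1 went from 1 read in 3 libraries to 21.9, 26.8 and 28.1 CPM. No treated library came near a control. With a floor of 3 counts over the group these were rises of at least 274-fold for MAGEA1, 280-fold for MAGEA10 and 365-fold for MAGEA12; the ratio for GTSF1 was 1480, with a 95% counting interval of 265 to 58500.

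The members already read in untreated Cal27 moved less. MAGEA3 rose from 97.8, 90.3 and 87.7 CPM to 131, 132 and 136 CPM, without overlap (log2 difference 0.52 ± 0.0646, SE, adjusted p from edgeR 7.93e-06). PRAME rose from 15.4, 15.9 and 14.9 CPM to 22.9, 21.0 and 40.2, also without overlap (0.85 ± 0.182, adjusted p 0.00144); the highest value is the library of low mitochondrial share, and when Cal27 was fitted alone the adjusted p was 0.0647. MAGEA6 rose from 85.3, 84.3 and 80.5 CPM to 101, 103 and 88.4 (0.21 ± 0.0764, adjusted p 0.0383), a call lost under 6 other settings (0.0548 to 0.212) and without any of 4 single libraries (0.08 to 0.123). MAGEA4 did not pass, at 255, 248 and 259 CPM against 306, 297 and 148 (-0.04, adjusted p 0.885). Its low value is again replicate 3, and without that library the difference was 0.23 (adjusted p 0.000529). CTAG2 had no read. Of the 4 members with more than 3 reads in untreated Cal27, 3 were thus higher and none lower in this comparison, where 39.4% of all genes tested were called, 22.7% upward and 16.7% downward.

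ACLY in Cal27 went with the same silent genes at higher levels. MAGEA1 went from 0 reads with vector to 30.5, 27.1 and 29.5 CPM, MAGEA10 from 0 to 28.4, 31.8 and 31.2 CPM, and MAGEA12 from 0 to 38.5, 41.2 and 37.8 CPM. These were rises of at least 563-fold, 592-fold and 761-fold. GTSF1 went from 3 reads in 3 libraries to 46.8, 45.3 and 41.4 CPM, a ratio of 865 (296 to 4200). Each of the 12 treated values lay above every Cal27 value with IL-8 for the same gene.

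MAGEA3 rose from 89.8, 89.2 and 90.9 CPM with vector to 164, 164 and 162 with ACLY (log2 difference 0.85 ± 0.0558, SE, adjusted p from edgeR 3.47e-15). MAGEA4 rose from 238, 227 and 240 CPM to 356, 336 and 316 (0.50 ± 0.0595, adjusted p 5e-09). PRAME rose from 13.8, 14.9 and 14.8 CPM to 31.9, 29.2 and 28.1 (1.03 ± 0.106, adjusted p 2.23e-10). MAGEA6 rose from 77.4, 78.0 and 80.9 CPM to 116, 122 and 110 (0.54 ± 0.0783, adjusted p 9.65e-07). The groups did not overlap for any of the 4. All 4 members with more than 3 reads in the vector group were thus higher, where 63.2% of all genes were called, 34.2% upward and 29.0% downward (6353 higher and 5381 lower, or 5509 and 6219 with scaling by library size alone and 5750 and 5981 with DESeq2 size factors). CTAG2 had no read.

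Other genes silent in Cal27 controls and read in HN4 moved in the same libraries. Outside the set, 63 protein-coding genes were at 10 CPM or more in untreated HN4 and below 0.3 CPM in untreated Cal27. As a share of their untreated HN4 level, their median in Cal27 was 0 with neither treatment, 0.259 ± 0.0434 (SD over 3 libraries) with IL-8 and 0.476 ± 0.0161 with ACLY. The same share for MAGEA1 was 0.267 ± 0.0252 and 0.549 ± 0.0334, for MAGEA10 0.255 ± 0.0711 and 0.540 ± 0.0329, and for GTSF1 0.303 ± 0.0385 and 0.526 ± 0.033. All 3 lay inside the middle range of the 63 genes (quartiles 0.203 to 0.324 with IL-8 and 0.382 to 0.580 with ACLY). MAGEA12 stood higher, at 0.388 ± 0.0279 and 0.807 ± 0.0373, above 92.1% and 98.4% of those genes. Not all of the 63 genes are particular to HN4. Their median share in untreated HN6 was 0.337 ± 0.0108, with quartiles of 0.0109 and 0.876. The 16 of them near 0 in untreated HN6 as well had medians in Cal27 of 0.302 ± 0.0188 with IL-8 and 0.471 ± 0.0215 with ACLY.

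The reverse sets behaved otherwise. The 17 genes read in untreated HN6 and near 0 in the other lines had a median of 0 in every Cal27 group, as had CTAG2. The 28 genes read in untreated Cal27 and near 0 in the other lines fell to medians of 0.651 ± 0.0221 of their untreated level with IL-8 and 0.403 ± 0.0277 with ACLY. Markers of squamous epithelium summed to between 6910 and 7580 CPM in untreated Cal27 and to between 5310 and 7240 with IL-8, and to between 6890 and 7630 with vector and 4170 to 4380 with ACLY. Markers of fibroblasts, mostly COL1A1 and PDGFRB, summed to between 27.2 and 29.2 CPM untreated against 15.2 to 22.8 with IL-8, and to between 30.1 and 32.3 with vector against 8.16 to 10.2 with ACLY. Those of endothelium summed to between 26.7 and 28.1 against 15.7 to 18.8 CPM, and to between 26.8 and 28.2 against 11.9 to 13.4. Those of leukocytes summed to between 16.7 and 18.8 against 10.7 to 13.8 CPM, and to between 18.8 and 20.5 against 13.0 to 14.3. All of these lists were thus lower with ACLY in each library, and all but the squamous list with IL-8. The part these changes play in the levels of the members was not tested, nor was the presence of HN4 RNA in the treated Cal27 libraries, so each Cal27 rise given above is a difference between libraries as labelled. In bulk RNA, more cells that express a gene and more RNA of it per cell cannot be told apart.

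**Figure D4:**
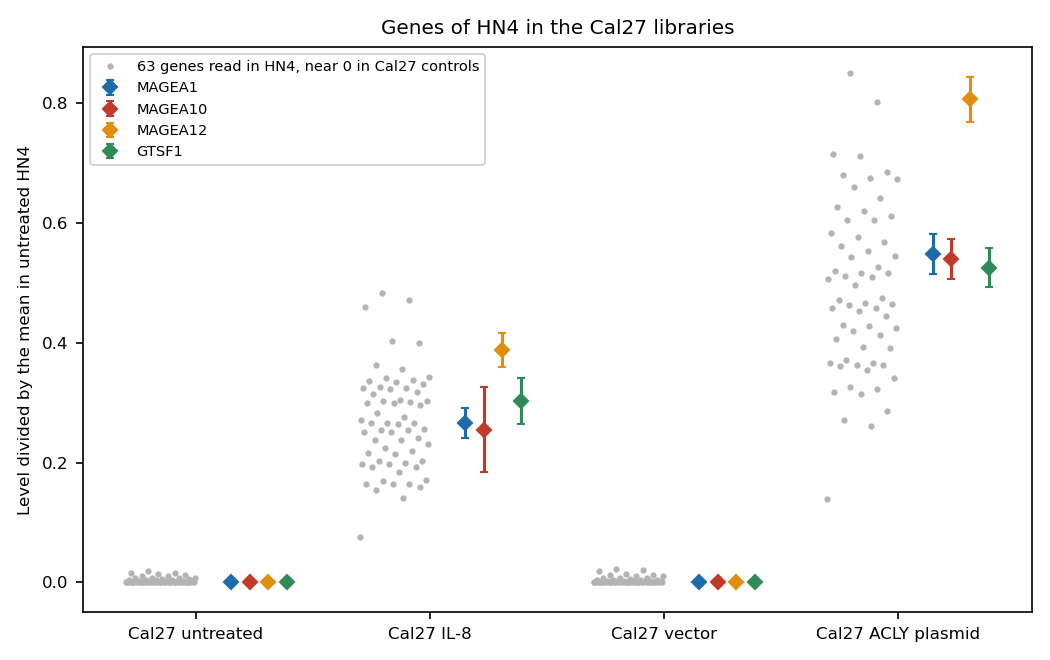
Level in each Cal27 group divided by the mean in untreated HN4, for 63 genes read in HN4 and near 0 in untreated Cal27 (grey points, group means) and for 4 members (diamonds with SD over 3 libraries). All lie near 0 in the untreated and vector groups, and the members' means reach 0.255 to 0.388 with IL-8 and 0.526 to 0.807 with ACLY.

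In HN4 fewer members passed, and by smaller amounts. With IL-8, MAGEA3 went from 122, 120 and 114 CPM to 135, 142 and 142 (log2 difference 0.23 ± 0.0644, SE, adjusted p from edgeR 0.0217). MAGEA6 went from 74.4, 65.3 and 63.2 CPM to 80.4, 79.7 and 86.6 (0.28 ± 0.0769, adjusted p 0.0212), and MAGEA12 from 50.6, 45.8 and 49.1 CPM to 63.9, 62.7 and 60.0 (0.36 ± 0.0749, adjusted p 0.00493). None of the 3 overlapped between groups. They were the members called, 3 of the 8 with more than 3 reads in untreated HN4, all higher. Of all genes 14.0% were called, 6.89% upward and 7.09% downward (1268 higher and 1304 lower, or 792 and 1586 with scaling by library size alone, under which MAGEA3 and MAGEA6 were not called). Both calls were also lost with no filter (adjusted p 0.175 and 0.0976), that of MAGEA3 without any of 4 single HN4 libraries (0.0571 to 0.101) and that of MAGEA6 without any of 3 (0.0873 to 0.108). MAGEA1, MAGEA10, GTSF1, PRAME and MAGEA4 did not pass; without replicate 3 of Cal27 with IL-8, a library outside this comparison that enters the shared estimate of spread, PRAME (0.27, adjusted p 0.00718) and MAGEA4 (0.13, adjusted p 0.0312) did.

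HN4 libraries labelled ACLY had less of 4 members than those labelled vector, and by their ACLY content these labels are in doubt, so the direction holds for the labels only. MAGEA3 was at 111, 109 and 126 CPM against 149, 150 and 155 (log2 difference -0.38 ± 0.0555, adjusted p from edgeR 1.15e-06). MAGEA12 was at 49.5, 40.3 and 47.2 CPM against 65.2, 65.8 and 58.6 (-0.46 ± 0.0738, adjusted p 6.68e-06), and PRAME at 23.8, 26.5 and 30.8 CPM against 38.8, 39.98 and 41.9 (-0.57 ± 0.0998, adjusted p 2.36e-05). MAGEA6 was at 59.0, 61.6 and 81.3 CPM against 88.3, 85.1 and 87.8 (-0.36, adjusted p 0.000657). These were 4 of the 8 members with more than 3 reads in the libraries labelled vector, with no overlap in any of them. Of all genes 38.1% were called, 18.9% upward and 19.1% downward. GTSF1 was at 80.4, 87.2 and 56.0 CPM in the libraries labelled ACLY, and its lowest value is the replicate of low mitochondrial share. GTSF1 was not called with all libraries or without that one (-0.02, adjusted p 0.91), but was called lower without replicate 2 labelled ACLY (-0.31, adjusted p 0.0195) and with no filter on low counts (-0.21, adjusted p 0.0352).

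In HN6 MAGEA3 was lower with IL-8. It went from 230, 222 and 234 CPM to 202, 201 and 193 (-0.19 ± 0.0639, adjusted p from edgeR 0.0476), and MAGEA6 from 145, 134 and 140 CPM to 123, 124 and 116 (-0.20 ± 0.0759, adjusted p 0.0906). The groups did not overlap for either gene, and only MAGEA3 was called, 1 of the 6 members with more than 3 reads in untreated HN6. Of all genes 15.4% were called, 7.61% upward and 7.81% downward (1400 higher and 1437 lower, or 1695 and 939 with scaling by library size alone, under which MAGEA3 was not called). That call was also lost without any single HN6 library of the comparison. CTAG2, MAGEA12, MAGEA4 and PRAME did not pass. The 8 fibroblast markers summed to between 17.0 and 18.1 CPM untreated and between 29.1 and 31.1 with IL-8 in these libraries, mostly from COL1A1 (13.6 and 21.8 CPM). Their part in the change was not tested.

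With ACLY, MAGEA4 in HN6 rose from 12.2, 12.3 and 12.2 CPM to 21.7, 20.9 and 21.7 (log2 difference 0.81 ± 0.0853, SE, adjusted p from edgeR 5.77e-10). MAGEA3 fell from 206, 237 and 222 CPM to 164, 165 and 168 (-0.42 ± 0.0543, adjusted p 5.11e-08), MAGEA6 from 134, 147 and 140 CPM to 108, 108 and 97.3 (-0.42 ± 0.0773, adjusted p 3.96e-05) and MAGEA12 from 94.1, 91.2 and 85.7 CPM to 71.6, 75.7 and 79.2 (-0.26 ± 0.0706, adjusted p 0.00282). CTAG2 fell from 58.9, 77.8 and 70.5 CPM to 58.7, 56.2 and 57.4, with its lowest vector library just above the highest ACLY library (-0.26 ± 0.093, adjusted p 0.0198); this call was lost under 4 other settings (0.0584 to 0.0925) and without any of 4 single libraries (0.0557 to 0.18). So, of the 6 members with more than 3 reads in the vector group, 1 rose and 4 fell. Of all genes 51.6% were called, 26.8% upward and 24.9% downward. MAGEA1 and MAGEA10 held no read in these groups, and GTSF1 and PRAME stayed at or near the floor.

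In the same HN6 libraries, the summed levels of markers of other tissues were higher with ACLY. The 8 fibroblast markers summed to between 18.5 and 22.3 CPM with vector and between 52.6 and 60.6 with ACLY, with 4 and 2 of them at 0 reads. Most of that sum was COL1A1, at 14.8 and 44.9 CPM, and LUM and PDGFRB were also higher. COL1A2, COL3A1, DCN, PDGFRA and THY1 stayed at or below 0.095 CPM in both groups. The 8 leukocyte markers summed to between 16.5 and 17.3 against 34.0 to 41.0 CPM, and the 4 endothelial markers to between 10.0 and 12.4 against 19.5 to 22.0 CPM. Their part in the changes of the HN6 members was not tested.

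Whether a response differed from line to line was itself tested, with an interaction term. It is read here for the 4 members with more than 3 reads in the controls of every line, MAGEA3, MAGEA4, MAGEA6 and PRAME. With IL-8, MAGEA3 and MAGEA6 passed, where 40.2% of all genes did. With the plasmids all 4 passed, where 70.9% of all genes did, and this test includes HN4 with its labels in doubt. Restricted to Cal27 against HN6, the plasmid test called MAGEA3 (adjusted p from edgeR 4.6e-16), MAGEA4 (0.0106) and MAGEA6 (1.57e-08), and not PRAME (0.209). No test of this kind is given for the other 5 members, each of which was silent in the controls of at least 1 line.

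Few related X-linked genes were read. Of 63 other cancer-testis and germ cell genes listed, nearly all autosomal, more were. Untreated HN4 had 23 of these at 1 CPM or more, untreated HN6 had 22 and untreated Cal27 had 23. Of 76 other X-linked cancer-testis genes listed, HN4 had 8 at 1 CPM or more when untreated, HN6 had 5 and Cal27 had 1, while 53, 55 and 65 had no read. 8 had enough reads to be tested with IL-8 and 9 with the plasmids. None was called with IL-8 in HN4 or HN6, where 14.0% and 15.4% of all genes were. The genes tested in Cal27 include some silent in its controls, such as SAGE1 and CT83, which passed the filter only through other groups. Rises in Cal27 are therefore given as levels and not read as tested. CSAG1, the neighbour of MAGEA12, was at 0.035 CPM in untreated Cal27, 12.8 with IL-8 and 19.2 with ACLY. CT45A1 was at 0.035, 17.3 and 28.7 CPM, SAGE1 at 0, 7.02 and 12.5, and CSAG3 at 1.57, 7.45 and 8.48. In HN6 with ACLY, CSAG3 rose (1.17, adjusted p from edgeR 2.55e-06), while CT45A10 (-0.64, adjusted p 0.00612) and FAM133A (-1.72, adjusted p 0.0138) fell. Of all genes 26.8% were called upward and 24.9% downward in that comparison.

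Of the 20 other type I MAGE genes listed, 5 were tested with IL-8 and 7 with the plasmids. MAGEB2 was highest in HN6, at 86.4 CPM untreated, against 5.68 in HN4 and 0 in Cal27, and MAGEA11 was at 16.1 CPM in HN6 and below 0.15 in the other untreated lines. MAGEB2, MAGEA2B and MAGEA2 had 0 reads in all Cal27 controls, so their rises in Cal27 are described and not read as tested. With a floor of 3 counts over the group, MAGEB2 rose at least 34.3-fold with IL-8 and 59.5-fold with ACLY. The same limits were 18.1-fold and 14.2-fold for MAGEA2B and 5.42-fold and 73.0-fold for MAGEA2. The type II MAGE gene MAGED1, which most tissues express, had 0 reads in all Cal27 controls. It was at 16.4 CPM with IL-8 and 28.9 with ACLY, rises of at least 317-fold and 562-fold, and rose in HN6 with IL-8 (0.51, adjusted p from edgeR 0.00137) and with ACLY (1.10, adjusted p 1.88e-13).

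Genes of DNA methylation and repressive chromatin, a list of 40 of which 39 were tested, were called in each line. The list also holds TET1, TET2 and TET3, which act in removing methylation. With IL-8, 6 of 39 were higher and none lower in HN4, where 6.89% and 7.09% of all genes were. In HN6 2 were higher and 9 lower (7.61% and 7.81% of all genes), and in Cal27 12 were higher and 3 lower (22.7% and 16.7%). With ACLY, 6 were higher and 23 lower in HN6 (26.8% and 24.9% of all genes), and 25 higher and 6 lower in Cal27 (34.2% and 29.0%). The HN4 libraries labelled ACLY had 4 higher and 16 lower (18.9% and 19.1%). The median log2 difference of the list with ACLY was -0.28 in HN6 and 0.24 in Cal27, against 0.04 and 0.03 over all genes tested. DNMT1, the methyltransferase that copies methylation onto new DNA, differed by -0.54 in HN6 (adjusted p from edgeR 1.85e-12) and 0.24 in Cal27 (1.3e-05). TRIM28, which is both a repressor and the ligase bound by MAGEA3, differed by -0.95 (2.24e-13) and 0.51 (5.08e-08). CBX3 moved likewise, from 321 CPM with vector to 223 with ACLY in HN6 and from 358 to 595 in Cal27. KDM1A went the other way in both lines, from 435 to 511 CPM in HN6 and from 289 to 256 in Cal27. Of 20 listed ligase partners, 3 rose and 8 fell with ACLY in HN6 and 13 rose and 2 fell in Cal27, to be read against the same shares of all genes.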

How the data were processed

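The deposited table holds raw counts per gene for 36 libraries; per the submitters' processing notes the authors used featureCounts (1.5.0-p3), the aligner HISAT2 (2.0.5), build hg38, CASAVA and DESeq2. Strand, multi-mapped reads and the annotation release are not given in the sources used here. Differences were tested with edgeR 4.0.16 (R 4.3.3): quasi-likelihood fit, TMM factors, filterByExpr by group (minimum count 10, minimum total 15), one mean per group, the 18 libraries of an experiment fitted together with 12 residual degrees of freedom. Levels of the lines were not tested against each other, and a member's change is read as tested only with more than 3 reads in its control group, a limit set after seeing the data. Alternatives were other scalings, filters and fits, a replicate block, DESeq2 1.42.0 and leaving out libraries. Every pair of replicates differed by more than sampling noise (chi-square per degree of freedom 1.99 to 107 over 36 pairs). Named genes are the 9 members, the 3 nearest in pattern to each, the highest or called genes of each list, and neighbours within 100 kb. Members and lists were chosen with earlier results of these data known. The fit recovered known changes in counts simulated for IL-8 against untreated in HN6, with the same spread for all genes and no outlying library. That simulation did not cover the other comparisons.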

Additional observations from a re-analysis of the deposited data

Results flagged for a closer look

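For 2 of the 4 members with more than 3 reads in the controls of every line, the change with IL-8 differed among the lines in edgeR's interaction test (F on 2 contrasts, adjusted over all genes). Of all genes tested, 40.2% passed it. The adjusted p was 3.43e-05 for MAGEA3 and 0.00378 for MAGEA6. Both were lower with IL-8 in all 3 treated HN6 libraries and higher in all treated libraries of HN4 and Cal27.

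The change with the plasmids differed among lines for all 4, with HN4 taken as labelled, where 70.9% of all genes passed. The adjusted p was 8.62e-17 for MAGEA3, 5.8e-11 for PRAME, 9.47e-09 for MAGEA6 and 3.84e-08 for MAGEA4. Between Cal27 and HN6 alone, PRAME did not pass (adjusted p 0.209), with 13 and 16 reads in the HN6 groups.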

How the results depend on the processing

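Of 780 values of single members under alternative settings, 730 kept their call, 40 lost it, 9 gained it and 1 turned: MAGEA4 with IL-8 in Cal27, at 0.23 without Cal27 IL-8 replicate 3 against -0.04 with it (-0.20 to 0.23 over single libraries left out). The cause was not tested. The plasmid comparisons kept their counts of genes and members within 1.5 times under every setting run, except that the response difference called 5 members for Cal27 against HN6 only, a comparison added after seeing the data; 2 of them, MAGEA12 and GTSF1, were silent in the Cal27 controls and are not read as tested. For IL-8 in HN4, 3 members were called, but 1 with library size scaling, 1 with no filter and 5 from the line alone, which called 6551 genes. Leaving out single libraries gave 1 to 5 members and 1401 to 5738 genes, the highest without Cal27 IL-8 replicate 3. For IL-8 in HN6, 1 member was called, but 0 with library size scaling, with no filter, with a mean of 5 CPM and with the replicate block. At an unadjusted p under 0.05 edgeR had 1, 1, 2 and 2 members in these fits, and DESeq2 called 2. The line alone called 2 members and 6025 genes, and leaving out single libraries gave 0 to 2 members and 1742 to 6194 genes. For IL-8 in Cal27, the line alone called 2588 genes in place of 7247. The replicate numbers did not pair the libraries (correlations of same-numbered deviations from -0.22 to 0.194), and with the replicate block 2466, 2710 and 7092 genes were called with IL-8 in HN4, HN6 and Cal27, and 6927, 9468 and 11630 with the plasmids. Depth limits PRAME, MAGEA1 and GTSF1 in HN6, which held at most 19 reads a group.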
